A study of Gallus gallus with 28 samples.

Results

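The basilar papilla is the hearing epithelium of birds, a sheet of sensory hair cells and the supporting cells around them. Streptomycin, an aminoglycoside antibiotic, kills hair cells. In birds the surviving supporting cells can divide or convert and so replace lost hair cells, and the study followed gene expression in chicken papillae through that recovery. The results here concern a single step of the recovery, from 24 to 48 h in streptomycin-treated papillae. It was taken as the 2 treated samples of the 48 h time point against the 2 treated samples of the 24 h time point, 4 of the 28 samples used.

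According to the labels, the treated papillae were kept in streptomycin for 24 h after dissection and then recovered, and the controls had no treatment. Both arms were followed at 8 time points from 0 to 168 h, and the 2 control samples at 24 h and the 2 at 48 h serve as the untreated counterpart of the step. The labels name no strain, age or dose. RNA of whole papillae was sequenced, and the deposited values are RPKM, reads scaled to gene length and library size. In bulk tissue, fewer cells of a type and less RNA per cell cannot be told apart. Libraries held 25.13 and 19.18 M alignments at treated 24 h and 22.73 and 19.77 M at treated 48 h, within the range of 16.48 to 38.17 M over the series. Replicates of these groups correlated across genes at r = 0.982 (24 h) and 0.988 (48 h). The second 24 h library lay above the first by a median of 0.25 on the log2 scale, so some results below are given without it and without the other libraries.

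Differences are 48 h minus 24 h on the scale of log2(RPKM + 1), given with their standard error, and this scale understates folds of weakly expressed genes. A gene was called where the limma p-value, adjusted by Benjamini-Hochberg over 12195 features, was under 0.05. An unadjusted limma p under 0.05 was found for 1805 features in the treated step, 1926 in the control step and 1157 in the difference of steps. These are the background for counts at an unadjusted p in the lists below. With 2 samples against 2, an exact two-sided permutation test of a single gene cannot go below p = 0.333, so all calls rest on the spread shared across genes and groups in the model.

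The labelled tissue was checked against cell type markers. In the treated libraries MYO7A, the motor protein of the hair bundle, stood at 0.621 and 0.924 RPKM at 24 h and at 1.78 and 1.47 at 48 h, against 14.4 to 29.2 in the 4 controls. TMC2 and SLC17A8, a transduction channel subunit and the glutamate transporter of hair cell synapses, were at 0 to 0.272 RPKM in all 4 treated libraries and at 13.98 to 47.9 in the controls. Supporting cell markers were abundant, with SOX2 at 57.6 to 81.8 RPKM in treated and 12.9 to 25.1 RPKM in control libraries. CALB2, also listed as a hair cell marker, was an exception at 11.4 to 40.0 RPKM in treated and 8.28 to 24.8 RPKM in control libraries.

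From 24 to 48 h, 193 features were called higher and 15 lower in treated papillae, which is 1.71% of those tested (1.58% higher and 0.123% lower). The rises included genes of the extracellular matrix, a set of genes for chromosome segregation and cell division, enzymes of serine synthesis, and the peptide precursors PENK and NPY. Of the rises, 100 were at least 2-fold in RPKM + 1, as were 5 of the falls. Some rises outside these 100, such as TOP2A, were over 2-fold in RPKM itself. The median over all features was 0.07 on the log2 scale. After median-of-ratios rescaling of the libraries the split was 156 higher to 45 lower, 77.61% higher in place of 92.79%. Leaving out a library lowered the count of rises to 13 (without 24 h replicate 1), 154 (without 24 h replicate 2), 15 (without 48 h replicate 1) and 38 (without 48 h replicate 2), and the count of falls to 3, 5, 1 and 2 in the same order.

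The rises called in all 4 of these fits were HPGDS, PENK, SCIN, ITGB6, COL6A2, CTGF, CD99, GLIPR2, NT5DC2 and SGCD, and CHRNA7 was the fall called in all 4. CD99, GLIPR2, NT5DC2 and SGCD are named here after their values were seen. In CD99, a cell surface glycoprotein, levels went from 40.3 and 44.1 RPKM to 90.0 and 86.5 RPKM. In SGCD, delta-sarcoglycan of the dystrophin complex, they went from 3.87 and 3.45 RPKM to 10.1 and 10.7 RPKM. For both genes the replicates lay close together and the groups far apart.

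Over the whole time course of treated papillae, the median level of the 193 risers was 3.45 RPKM at 0 h, 3.11 at 24 h, 8.53 at 48 h and 8.60 at 72 h. In controls the same genes had medians of 5.77, 6.97, 9.83 and 11.5 RPKM at those times. For 102 of the 193 the lowest treated mean of the 8 time points was at 24 h, and for 51 the highest was at 48 h, values that use the samples which chose the genes and are given as description. The 15 fallers had treated medians of 18.2, 19.9, 11.03 and 7.16 RPKM from 0 to 72 h.

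HPGDS, the haematopoietic prostaglandin D synthase, showed the largest rise among named genes. It stood at 58.1 and 84.8 RPKM at 24 h and at 471 and 470 RPKM at 48 h, a difference of 2.73 ± 0.331 (adjusted p = 0.000683). PENK, the precursor of the enkephalin opioid peptides, went from 4.35 and 10.8 RPKM to 27.8 and 55.6 RPKM, a difference of 2.34 ± 0.324 (adjusted p = 0.00173). Both 48 h libraries lay above both 24 h libraries for each gene, although the PENK replicates lay well apart at each time. NPY, the precursor of neuropeptide Y, went from 0.373 and 0.491 RPKM to 5.13 and 5.08 RPKM (2.09 ± 0.451, adjusted p = 0.026). Its call was lost without any 1 of the 4 treated libraries.

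SCIN encodes scinderin, a calcium-dependent actin-severing protein of the gelsolin family, and had the smallest adjusted p-value among the named genes. Its levels were 6.51 and 7.92 RPKM at 24 h and 34.8 and 28.1 RPKM at 48 h (1.98 ± 0.164, adjusted p = 9.65e-06). PGM5, a phosphoglucomutase relative found at cell adhesions, was close to absence at 24 h with 0.113 and 0.0991 RPKM and reached 3.27 and 2.93 RPKM. EDNRB2, an endothelin receptor that birds express in pigment cell precursors, went from 0.967 and 2.21 RPKM to 8.03 and 9.34 RPKM. EDNRB2 was the 1 member called of 14 melanocyte genes, 7.14% against 1.58% of all features. Both 48 h libraries exceeded both 24 h libraries for 11 of the 14, 78.6% against 30.0% of all features. TYRP1, a melanocyte marker, went from 0.329 and 0.759 RPKM to 2.06 and 4.10 RPKM without passing (adjusted p = 0.144). In controls TYRP1 was called higher (adjusted p = 0.0435). TYR, the tyrosinase that defines pigment cells, was between 0 and 0.0987 RPKM in the 4 treated libraries. DYSFIP1, a regulatory subunit of protein phosphatase 1, had a large difference of 2.44 ± 0.556 but uneven 48 h libraries at 33.8 and 10.6 RPKM.

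**Figure D1:**
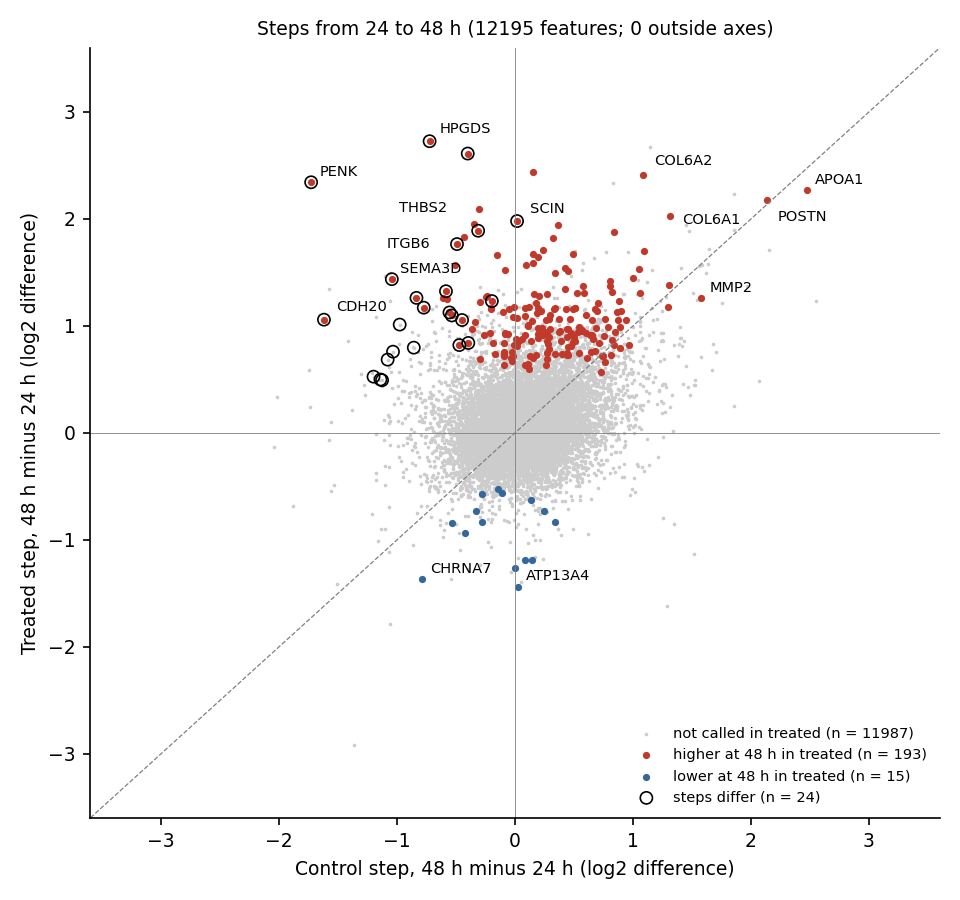
Log2 difference of each of 12195 features from 24 to 48 h in treated papillae (vertical) against control papillae (horizontal), with the 193 features called higher in red, the 15 called lower in blue, the 24 whose steps differed ringed and the dashed line marking equal steps. HPGDS and PENK lie high on the left, where the treated step is up and the control step down, while APOA1 and POSTN lie near the dashed line.

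Genes of the extracellular matrix made up 4 of the 12 largest named rises. COL6A1 and COL6A2 encode chains of collagen VI, which forms beaded filaments around cells. COL6A2 went from 1.68 and 1.43 RPKM to 15.4 and 10.2 RPKM (2.41 ± 0.330, adjusted p = 0.00173), and COL6A1 from 2.20 and 1.84 to 12.9 and 9.81 RPKM (2.03 ± 0.335, adjusted p = 0.0053). POSTN, the matricellular protein periostin, rose from 0.616 and 0.702 to 7.25 and 5.78 RPKM (2.17 ± 0.537, adjusted p = 0.0486). For these genes the 48 h groups lay wholly above the 24 h groups, with replicate 1 the higher of the 48 h libraries each time.

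These 3 were the members of the mesenchyme list of 33 genes that were called, 9.09% against 1.58% of all features, and none was called lower. The list's median was 0.69 in treated and 0.93 in control papillae, where 1 member was called higher. Its summed level was 233 and 237 RPKM at treated 24 h and 450 and 400 RPKM at treated 48 h, and 451 and 558 RPKM and 720 and 780 RPKM in controls. COL1A1, the main fibrillar collagen chain of connective tissue, went from 10.96 and 9.07 RPKM to 40.1 and 24.4 RPKM without passing (adjusted p = 0.102). The list's median and sum include COL6A1, COL6A2 and POSTN themselves, so they are not a separate measure of mesenchyme. The part of mesenchymal transcripts in the matrix results was not tested. Leaving out a treated library left 1 or 2 members called, 1 of them without 24 h replicate 1 or 48 h replicate 1 and 2 of them otherwise.

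Of 58 genes for matrix proteases and adhesion, 8 rose in the treated step (THBS2, ITGB6, MMP11, MMP2, PLAU, ADAM28, LAMC1 and THBS1) and none fell, 13.8% higher against 1.58% of all features, and the list's median was 0.48 in treated and 0.37 in control papillae. THBS2, a thrombospondin of the matrix, went from 1.52 and 3.17 RPKM to 10.9 and 12.2 RPKM (1.95 ± 0.331, adjusted p = 0.00602). ITGB6, the beta subunit of an epithelial integrin that activates TGF-beta, went from 3.04 and 3.83 RPKM to 15.9 and 12.3 RPKM (1.76 ± 0.181, adjusted p = 0.000118). MMP2, a gelatinase, went from 16.2 and 14.1 RPKM to 41.0 and 34.5 RPKM, and in controls from 27.3 and 27.8 RPKM to 101 and 70.3 RPKM. Both 48 h libraries exceeded both 24 h libraries for 44 of the 58 genes, 75.9% against 30.0% of all features. The count fell from 8 to 1, 6, 2 and 1 without 24 h replicate 1, 24 h replicate 2, 48 h replicate 1 and 48 h replicate 2.

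Cells that divide copy their DNA in S phase and then build the spindle, separate the chromosomes and split in mitosis, with partly different genes serving each stage. Of 64 measured genes for mitosis, 17 were called higher in the treated step and none lower, 26.6% against 1.58% of all features, and in the control step none of the 64 was called by limma (12 at an unadjusted p under 0.05). The median difference was 0.77 in treated and 0.21 in control papillae. Both 48 h libraries exceeded both 24 h libraries for 53 of the 64 genes, 82.8% against 30.0% of all features.

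Among regulators of entry and exit, CCNB2, a B-type cyclin that drives entry into mitosis, went from 3.73 and 6.83 RPKM to 18.9 and 17.2 RPKM (1.65 ± 0.257, adjusted p = 0.00423). CDC20, which activates the anaphase-promoting complex, went from 1.23 and 2.58 RPKM to 7.56 and 6.63 RPKM (1.52 ± 0.248, adjusted p = 0.00528). PLK1, a mitotic kinase, went from 0.933 and 1.03 RPKM to 4.96 and 3.42 RPKM (1.37 ± 0.222, adjusted p = 0.00474). The 24 h and 48 h libraries did not overlap for any of these, and for CCNB2 and CDC20 the 4 control libraries lay between the treated 24 h and 48 h levels. RACGAP1, needed for cytokinesis, went from 1.66 and 1.98 RPKM to 5.85 and 4.92 RPKM (1.18 ± 0.221, adjusted p = 0.013).

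The other members called were PRC1, ANLN and INCENP, which act at the central spindle and the cleavage furrow, BUB1, BUB1B and NUF2 of the kinetochore and its checkpoint, AURKA, TPX2, ASPM, HMMR, KIF2C and STMN1 of the spindle and its microtubules, and TOP2A, the topoisomerase that untangles chromosomes. TOP2A went from 3.89 and 4.10 RPKM to 9.51 and 8.34 RPKM (0.99 ± 0.243, adjusted p = 0.048). Not every member followed, since BUB3 stood at 54.8 and 71.1 RPKM at 24 h and at 50.3 and 53.5 RPKM at 48 h (adjusted p = 0.569). No mitosis gene differed between the treated and the control step past the threshold in limma (19 at an unadjusted p under 0.05), with CCNB2 at 1.46 ± 0.364 (adjusted p = 0.117), so the rise is not shown to be greater than in controls. Without 24 h replicate 1 and without 48 h replicate 1 the count of called members was 0, and without 24 h replicate 2 and 48 h replicate 2 it was 10 and 4, with 56 to 59 of the 64 differences positive in these fits.

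**Figure D2:**
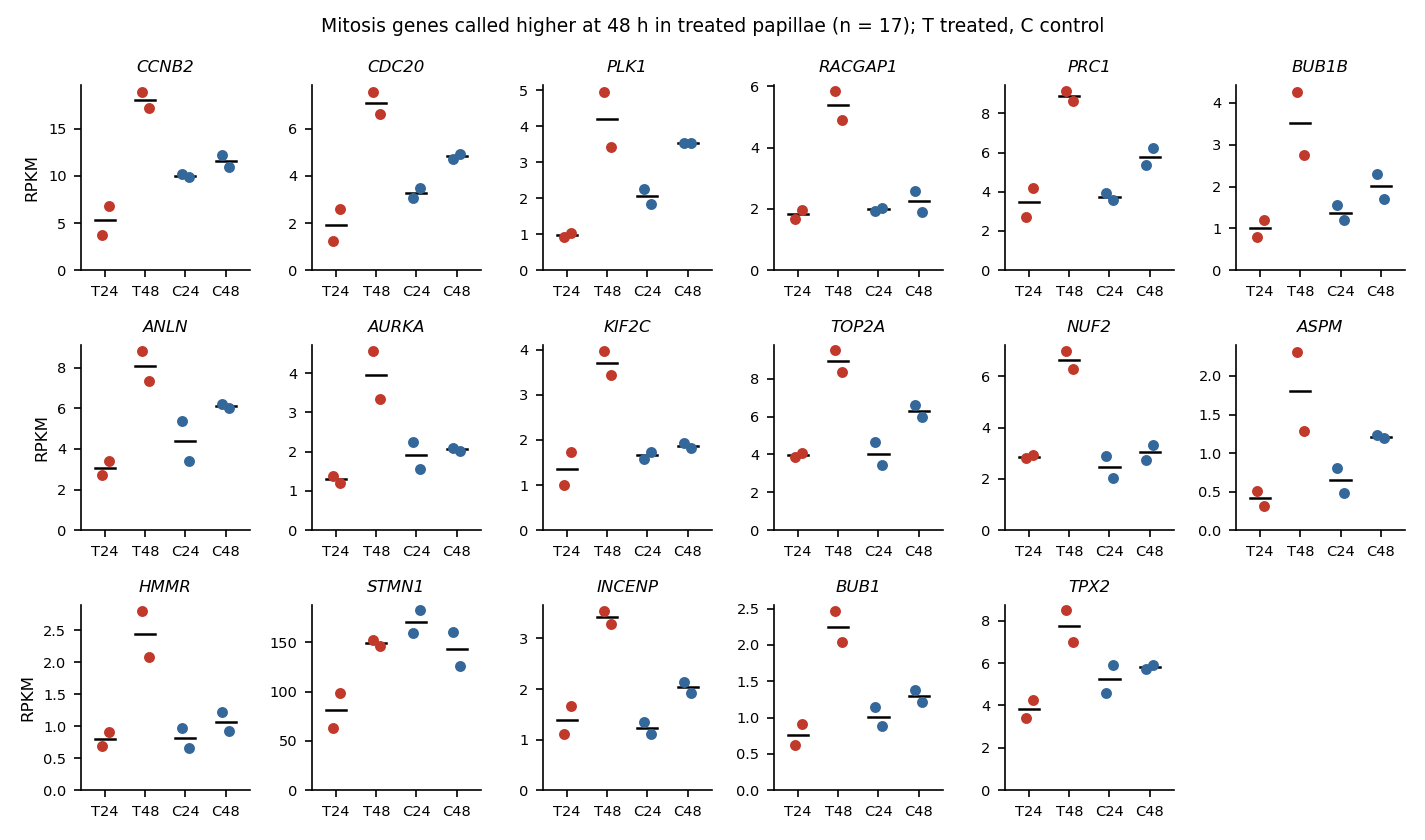
RPKM of the 17 mitosis genes called higher, in each of the 2 libraries (points) of treated 24 h (T24), treated 48 h (T48), control 24 h (C24) and control 48 h (C48), with bars at the group means and a linear axis from 0 for each gene. The treated 48 h points lie above the treated 24 h points in every panel, as for CCNB2 with 18.9 and 17.2 RPKM over 3.73 and 6.83 RPKM.

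Genes for DNA replication were not called with them. Of 46 measured, none was called in either direction by limma, 5 had an unadjusted p under 0.05, and the median was 0.15 in treated and 0.20 in control papillae. PCNA, the sliding clamp of the replication fork, stood at 54.1 and 69.0 RPKM at 24 h and at 65.9 and 69.6 RPKM at 48 h (0.15 ± 0.214, adjusted p = 0.816). Both groups of PCNA values overlapped and both were above the control range of 35.5 to 42.8 RPKM. Among 25 genes of G1 entry none was called (2 at an unadjusted p under 0.05), with CCND1, cyclin D1, at 25.4 and 29.1 RPKM and then 27.8 and 29.2 RPKM. MYC, the growth regulator, was at 44.4 and 70.4 RPKM and then 49.5 and 49.6 RPKM, and CDKN1A, an inhibitor of cyclin-dependent kinases, was below 1 RPKM in 3 of the 4 treated libraries and at 2.24 RPKM in the fourth.

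**Figure D3:**
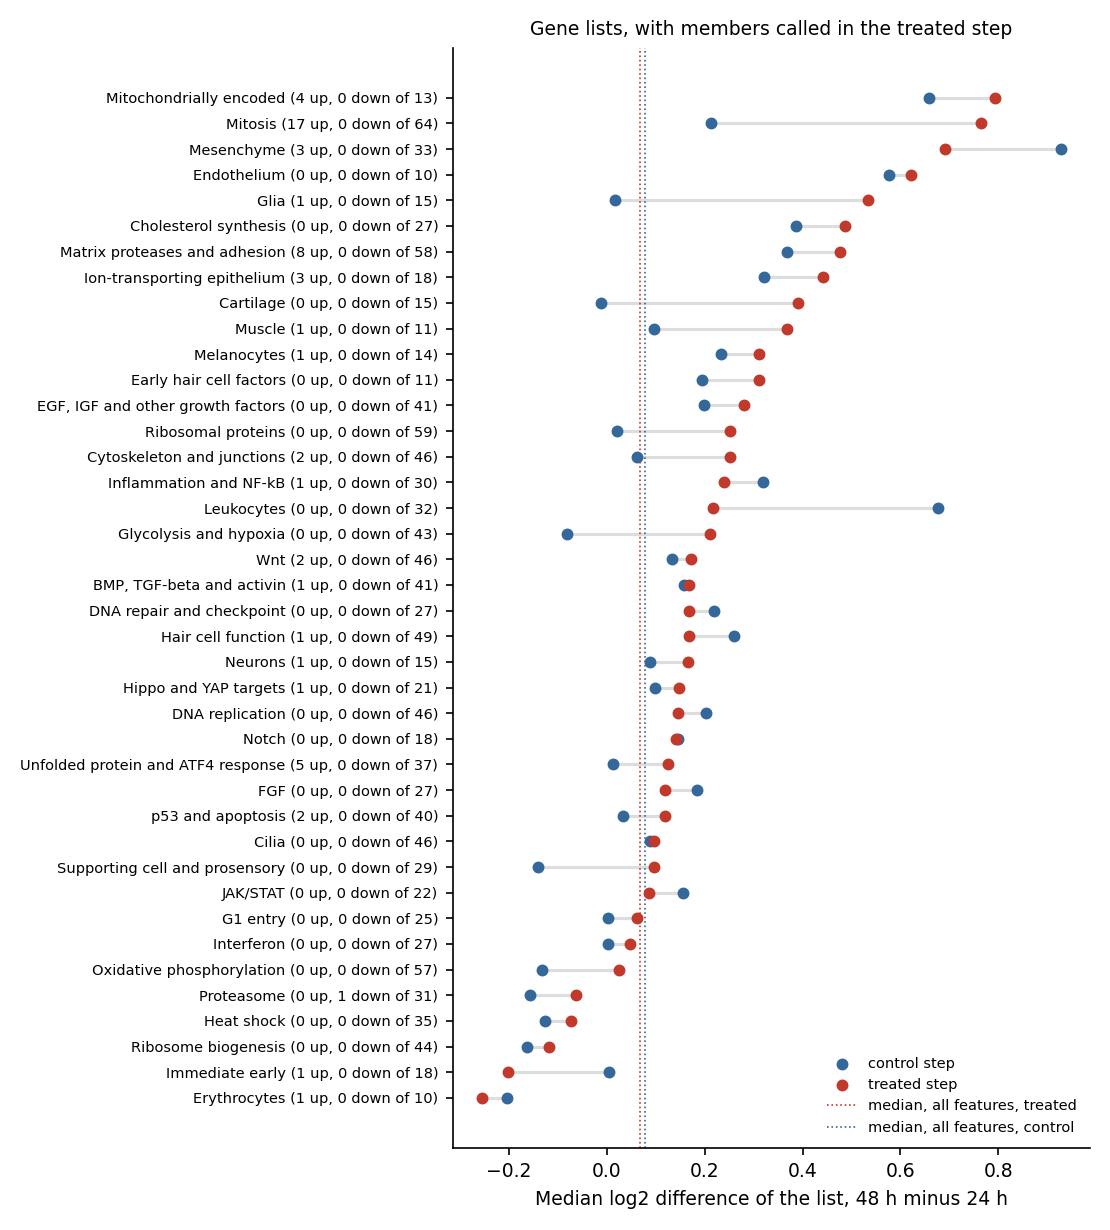
Median log2 difference from 24 to 48 h of the measured members of 40 gene lists in treated (red) and control (blue) papillae, with dotted lines at the medians of all features and, in each row label, the number of members called higher and lower in the treated step. The mitosis list stands at 0.77 in treated and 0.21 in control papillae, while the DNA replication list stands at 0.15 and 0.20.

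Among 37 genes of the unfolded protein and ATF4 responses, 5 rose and none fell (PSPH, SLC7A5, STC2, PSAT1 and ASNS), 13.5% higher against 1.58% of all features, with a list median of 0.12. PSPH and PSAT1 are enzymes of serine synthesis, ASNS makes asparagine and SLC7A5 imports large neutral amino acids. PSPH went from 2.45 and 3.82 RPKM to 13.6 and 13.3 RPKM (1.82 ± 0.263, adjusted p = 0.00249), with controls at 29.3 to 38.4 RPKM. SLC7A5 went from 22.4 and 22.001 RPKM to 81.1 and 64.8 RPKM (1.66 ± 0.263, adjusted p = 0.00423), with controls at 81.9 to 135 RPKM. Both genes moved from well below the controls towards their range. PSAT1 went from 2.46 and 1.98 to 6.71 and 6.29 RPKM, and STC2, the secreted glycoprotein stanniocalcin 2, from 43.8 and 74.3 to 143 and 135 RPKM. The calls of PSAT1 and ASNS were lost without any 1 of the 4 treated libraries. ATF4 itself, the transcription factor of the response, was not called, at 394 and 591 RPKM at 24 h and 366 and 292 RPKM at 48 h (adjusted p = 0.178). The count of called members was 0 without 24 h replicate 1, 3 without 24 h replicate 2, 1 without 48 h replicate 1 and 2 without 48 h replicate 2.

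All 13 measured genes encoded in the mitochondrial genome had higher values in both 48 h libraries than in both 24 h libraries, as did 30.0% of all features, and 4 were called, 30.8% against 1.58%. CYTB, cytochrome b of complex III, went from 455 and 470 RPKM to 893 and 1035 RPKM (1.05 ± 0.191, adjusted p = 0.0104). The other 3 were NU5M_CHICK, NU4LM_CHICK and NU4M_CHICK, entry names of complex I subunits ND5, ND4L and ND4, with differences of 0.99, 0.88 and 0.76. The 13 genes together held 2.34% and 2.27% of the summed RPKM at treated 24 h and 3.50% and 3.69% at 48 h. In controls the share went from 3.89% and 4.01% to 5.79% and 6.02%, with 13 positive differences and none called by limma (12 at an unadjusted p under 0.05). Of 57 nuclear genes for oxidative phosphorylation none was called (2 at an unadjusted p under 0.05), with a median of 0.03 that became -0.05 after rescaling, -0.32 without 24 h replicate 1 and 0.31 without 24 h replicate 2. CYTB and NU4LM_CHICK were each called in 1 of the 4 fits without a treated library, and NU5M_CHICK and NU4M_CHICK in none. All 13 mitochondrial differences stayed positive in these fits, with list medians from 0.65 to 0.83.

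In ion transport, 3 of 18 genes listed for ion-transporting epithelium rose and none fell, 16.7% higher against 1.58% of all features, with a median of 0.44. ATP6V0A4, a proton pump subunit, went from 6.39 and 8.34 RPKM to 30.9 and 28.2 RPKM (1.88 ± 0.379, adjusted p = 0.018). ATP1B1, the beta subunit of the sodium pump, went from 13.9 and 17.6 RPKM to 39.3 and 43.0 RPKM (1.34 ± 0.220, adjusted p = 0.0053). KCNQ1, a potassium channel of the inner ear duct, went from 2.77 and 2.75 RPKM to 5.34 and 7.55 RPKM. The groups did not overlap in these genes. The markers KCNE1 and SLC26A4 stayed at 0 to 1.52 RPKM in all 4 treated libraries, and the summed list level was 357 and 432 RPKM at 24 h and 570 and 584 RPKM at 48 h. Without 24 h replicate 2 the count was 2, and without any other treated library it was 0.

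Among signalling genes, CTGF, a secreted matrix-associated protein on the immediate early and the Hippo lists, went from 25.4 and 29.1 RPKM to 90.5 and 87.0 RPKM (1.67 ± 0.229, adjusted p = 0.00173). It was the member called of 18 immediate early genes (5.56%) and of 21 Hippo genes (4.76%), against 1.58% of all features. The immediate early list had a median of -0.20 (0.07 without 24 h replicate 2), with 6 of 18 differences positive. For the Hippo list the median was 0.15, with 13 of 21 differences positive. In the Wnt list, 2 of 46 genes rose, 4.35% against 1.58% of all features. They were LEF1, a transcription factor at the end of the pathway, from 1.25 and 2.09 RPKM to 8.21 and 6.64 RPKM (1.67 ± 0.277, adjusted p = 0.0054), and ROR1, a receptor, from 4.56 and 4.33 to 10.1 and 8.82 RPKM. The Wnt count was 0 without 24 h replicate 1 or 48 h replicate 1, 3 without 24 h replicate 2 and 1 without 48 h replicate 2. FSTL1, a secreted antagonist of BMP signalling, was the 1 member called of 41 BMP, TGF-beta and activin genes, 2.44% of them, at 17.8 and 19.2 RPKM and then 41.9 and 48.1 RPKM, and was not called without any 1 of the 4 treated libraries. None of 18 Notch genes was called (4 at an unadjusted p under 0.05), with the receptor NOTCH1 at 38.7 and 41.8 RPKM and then 32.9 and 36.8 RPKM. No member was called among 27 FGF genes (3 at an unadjusted p under 0.05) or 22 JAK/STAT genes (5 at an unadjusted p under 0.05).

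In the lists for death and inflammation, BID and BMF, promoters of mitochondrial apoptosis, were the members called of 40 p53 and apoptosis genes, 5.0% against 1.58% of all features. BMF went from 16.5 and 20.1 RPKM to 30.4 and 32.0 RPKM, and BID from 2.41 and 3.46 RPKM to 6.03 and 5.69 RPKM. TNFSF15, a cytokine of the TNF family, was called of 30 inflammation genes (3.33%), at 2.40 and 3.32 RPKM and then 6.58 and 6.601 RPKM. TNFSF15 was not called without the filter on low values or after rescaling. Of 46 cytoskeleton and junction genes, 2 (4.35%) were called, the cadherins CDH4 (22.2 and 27.2 RPKM, then 46.9 and 48.7 RPKM) and CDH2 (33.9 and 40.4 RPKM, then 60.3 and 63.5 RPKM). BID, BMF, CDH4 and CDH2 were each called in 1 of the 4 fits without a treated library, and TNFSF15 in none. In these fits the list medians ranged from -0.01 to 0.26 for apoptosis, 0.15 to 0.37 for inflammation and 0.18 to 0.37 for cytoskeleton genes.

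In the hair cell function list 1 of 49 genes was called higher, 2.04% against 1.58% of all features, a share near the background. Both 48 h libraries exceeded both 24 h libraries for 44.9% of the list against 30.0% of all features. The gene called was SCG3, a secretory granule protein, which went from 1.396 and 1.64 RPKM to 3.78 and 3.56 RPKM, against 84.7 to 117 RPKM in controls, a call that was lost without any 1 of the 4 treated libraries. CALB1, the calcium buffer calbindin, stood at 186 and 233 RPKM and then 527 and 628 RPKM without passing (1.46 ± 0.403, adjusted p = 0.0757). OTOF, the hair cell synapse protein otoferlin, stayed at 0.775 to 1.88 RPKM in the treated libraries, against 52.7 to 99.5 RPKM in controls. POU4F3 and GFI1, transcription factors of hair cell survival, stayed below 1 RPKM in all 4 treated libraries.

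ATOH1, which encodes the transcription factor that commits cells to the hair cell fate, was at 8.52 and 19.7 RPKM at treated 24 h and at 15.1 and 18.5 RPKM at 48 h, so the groups overlapped (0.34 ± 0.344, adjusted p = 0.715). In controls it fell from 12.9 and 8.77 RPKM to 1.83 and 1.91 RPKM (-2.02, adjusted p = 0.0166), and the difference between the steps did not pass (2.36 ± 0.487, adjusted p = 0.0541). In treated papillae ATOH1 stood at 3.999 and 4.84 RPKM at 0 h and at 14.3 and 15.3 RPKM at 72 h. None of 29 supporting cell and prosensory genes was called in the treated step (2 at an unadjusted p under 0.05). In the difference of steps 1 of the 29 was past the threshold, against 24 of all 12195 features. GJB6, connexin 30 of supporting cell gap junctions, was at 643 and 654 RPKM and then 437 and 463 RPKM (adjusted p = 0.487), and the water channel gene AQP5 at 67.7 and 130 RPKM and then 34.9 and 35.0 RPKM (adjusted p = 0.224). SOX2, which marks supporting cells, was at 61.7 and 81.8 RPKM and then 60.5 and 57.6 RPKM, TECTA, a protein of the tectorial membrane, at 60.3 and 73.8 RPKM and then 88.3 and 115 RPKM, and LDHA, lactate dehydrogenase, at 346 and 412 RPKM and then 645 and 460 RPKM, none of them called.

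For other cell types the papilla samples could hold, single members were called. These were MAP2 of 15 neuron genes (6.67%), GPM6B of 15 glia genes (6.67%) and ACTA1 of 11 muscle genes (9.09%). TFRC, a transferrin receptor that dividing cells also carry, was the 1 called of 10 erythrocyte genes (10.0%). Over all features 1.58% were called higher, and each of these shares rests on 1 gene. None of the 4 genes was called in more than 1 of the 4 fits without a treated library. Among the defining markers of neurons and muscle in the 4 treated libraries, SNAP25 was at 0 to 0.121 RPKM and NEFL at 4.32 to 6.99 RPKM for neurons, and MYH1 and TNNT3 were at 0 to 0.284 RPKM for muscle. The erythrocyte list had a median of -0.26, with 4 of 10 differences positive. Its marker HBAA went from 10.3 and 3.85 RPKM to 2.01 and 0.533 RPKM without passing (adjusted p = 0.375). None of 32 leukocyte genes was called (2 at an unadjusted p under 0.05), with a summed level of 344 and 417 RPKM at 24 h and 421 RPKM in both libraries at 48 h. Of the 40 lists, 19 held a member called higher, 1 held a member called lower and 20 held none.

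Falls from 24 to 48 h were few and smaller. ATP13A4, a P-type ATPase of cell membranes, went from 20.8 and 26.3 RPKM to 7.70 and 8.33 RPKM (-1.44 ± 0.320, adjusted p = 0.0288), and stood at 1.02 to 1.46 RPKM in the 4 controls. CHRNA7, the alpha-7 subunit of the nicotinic acetylcholine receptor, went from 19.8 and 19.99 RPKM to 7.24 and 6.95 RPKM (-1.37 ± 0.202, adjusted p = 0.0028). At treated 48 h ATP13A4 was still above its control range. CHRNA7 in controls went from 7.31 and 4.81 RPKM at 24 h to 3.12 and 2.92 RPKM at 48 h. Its treated 48 h levels were thus still above the controls of that time. PRKAR1B, a regulatory subunit of protein kinase A, fell from 11.7 and 13.5 to 4.12 and 5.92 RPKM (-1.19 ± 0.191, adjusted p = 0.00474) while controls held 16.2 to 19.7 RPKM, so it moved away from them.

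ERO1LB, an oxidase that supports disulfide formation in the endoplasmic reticulum, fell from 35.1 and 32.4 to 19.0 and 15.5 RPKM (-0.94 ± 0.167, adjusted p = 0.00956). SERPINB1, a protease inhibitor, fell from 6.0002 and 5.76 to 2.37 and 1.42 RPKM, and MTNR1A, a melatonin receptor, from 3.25 and 1.95 to 0.393 and 0.721 RPKM. The remaining named falls were smaller, between -0.57 and -0.84, in PTBP2, a neural splicing factor, SPIRE1, an actin nucleator, SATB1, a chromatin organiser, CEPT1, an enzyme of phospholipid synthesis, HBS1L, a ribosome rescue factor, and TSC22D2. SATB1 went from 6.04 and 5.79 to 3.32 and 3.03 RPKM, with controls at 1.64 to 2.48 RPKM. PSMD5, an assembly factor of the proteasome, was the 1 of 31 proteasome genes called, where 0.123% of all features were called lower. It stood at 17.1 and 19.5 RPKM and then 13.0 and 11.9 RPKM, just within the threshold (adjusted p = 0.04998). ATP13A4, SERPINB1, MTNR1A and TSC22D2 were not called with a pseudocount of 0.1 or without the filter on low values.

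**Figure D4:**
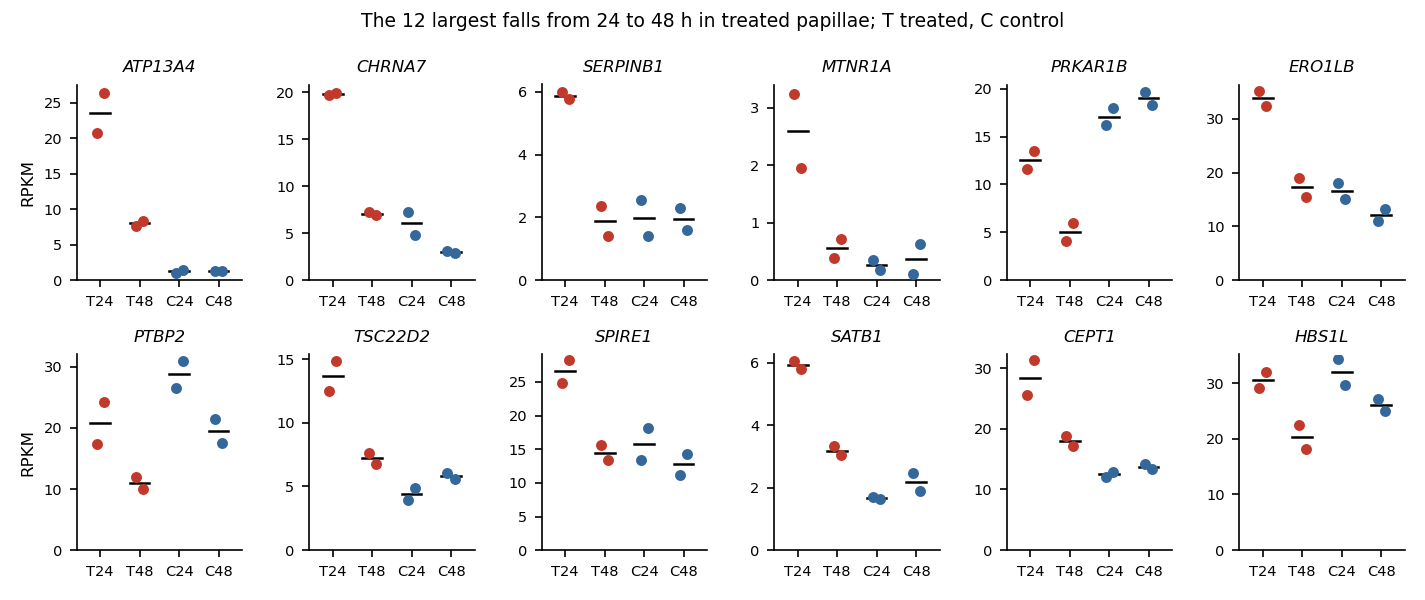
RPKM of the 12 largest falls in each of the 2 libraries (points) of treated 24 h (T24), treated 48 h (T48), control 24 h (C24) and control 48 h (C48), with bars at the group means and a linear axis from 0 for each gene. Both treated 48 h points lie below both treated 24 h points in every panel, and for PRKAR1B the treated 48 h points at 4.12 and 5.92 RPKM are the lowest of the 4 groups.

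The control step, which shares no sample with the treated step, asks how much of this change also took place in untreated papillae. In controls 90 features were called higher (0.738%) and 41 lower (0.336%), 1.07% of those tested. Of these, 12 were higher in both steps, 6.22% of the treated rises and 13.3% of the control rises, and none was lower in both. The shared rises were APOA1, BPGM, CPD, KIAA1274, LAMC1, LOXL2, MMP11, MMP2, MYO1D, PLOD1, PLXNC1 and VASH1, of which LAMC1, LOXL2, MMP11, MMP2 and PLOD1 act on or in the matrix. APOA1, the main protein of high-density lipoprotein, went from 19.5 and 16.1 RPKM to 94.6 and 84.1 RPKM in treated papillae and from 32.6 and 52.2 RPKM to 262 and 208 RPKM in controls. MMP11, a secreted protease, went from 0.746 and 0.508 RPKM to 3.71 and 2.79 RPKM and, in controls, from 2.80 and 2.72 RPKM to 7.85 and 8.77 RPKM. CDH20 and PENK were higher in the treated step and lower in the control step, with the treated call of CDH20 close to the threshold (adjusted p = 0.0472). Over all 193 treated rises the control difference was positive for 140 and negative for 53, while over all 12195 features it was positive for 7298. An unadjusted limma p under 0.05 in the control step, in either direction, was found for 85 of the 193, against 1926 of the 12195. The median difference of the 193 was 0.27 in controls and 1.05 in treated papillae, the latter from the samples that chose the genes.

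The difference of the steps, tested in the same model, was past the threshold for 24 features, 0.197% of those tested, with a positive signed difference, treated minus control, in all 24. In 7 of them the change was larger in size in the control step. Of the 24, 17 were called higher in the treated step itself, 7 were called lower in the control step and 23 had a negative control difference. None was past the threshold the other way by limma (466 at an unadjusted p under 0.05), although 2 to 7 were under some other settings that kept every library. The count was 50 after rescaling, and without 1 library it was 6 (control 24 h replicate 1, control 48 h replicate 2, treated 24 h replicate 1 or treated 48 h replicate 1), 7 (control 48 h replicate 1), 16 (treated 48 h replicate 2), 21 (control 24 h replicate 2) or 56 (treated 24 h replicate 2).

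PENK had the largest difference between the steps, 4.07 ± 0.458 (adjusted p = 0.000506), rising in treated papillae as given above and falling in controls from 42.4 and 47.1 RPKM to 13.0 and 12.6 RPKM. HPGDS rose in treated papillae while controls went from 1671 and 1831 RPKM to 972 and 1152 RPKM, a difference of 3.45 ± 0.469 (adjusted p = 0.00258). Treated levels of HPGDS remained below those of controls at 48 h and PENK levels exceeded them. CDH20, a cadherin, went from 0.421 and 0.843 RPKM to 3.12 and 1.76 RPKM in treated papillae and from 10.8 and 15.1 RPKM to 3.87 and 3.15 RPKM in controls (difference 2.68 ± 0.366, adjusted p = 0.00258).

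SEMA3D, a secreted semaphorin that guides axons and cells, went from 2.14 and 2.60 RPKM to 9.22 and 7.09 RPKM in treated papillae and from 11.3 and 5.39 RPKM to 3.52 and 3.08 RPKM in controls (difference 2.48 ± 0.409, adjusted p = 0.018). For ITGB6 controls were at 21.4 and 17.2 RPKM and then 13.1 and 13.7 RPKM, and the steps differed by 2.26 ± 0.256 (adjusted p = 0.000506). For SCIN controls stayed at 44.5 to 55.8 RPKM, and the steps differed by 1.96 ± 0.232 (adjusted p = 0.000627). PGM5 was at 0.768 to 1.99 RPKM in controls and its steps differed by 2.20 ± 0.423 (adjusted p = 0.0398), a call that was lost without the filter on low values. SCIN, ITGB6 and HPGDS were therefore low in treated papillae at 24 h relative to controls and nearer to the control level at 48 h.

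**Figure D5:**
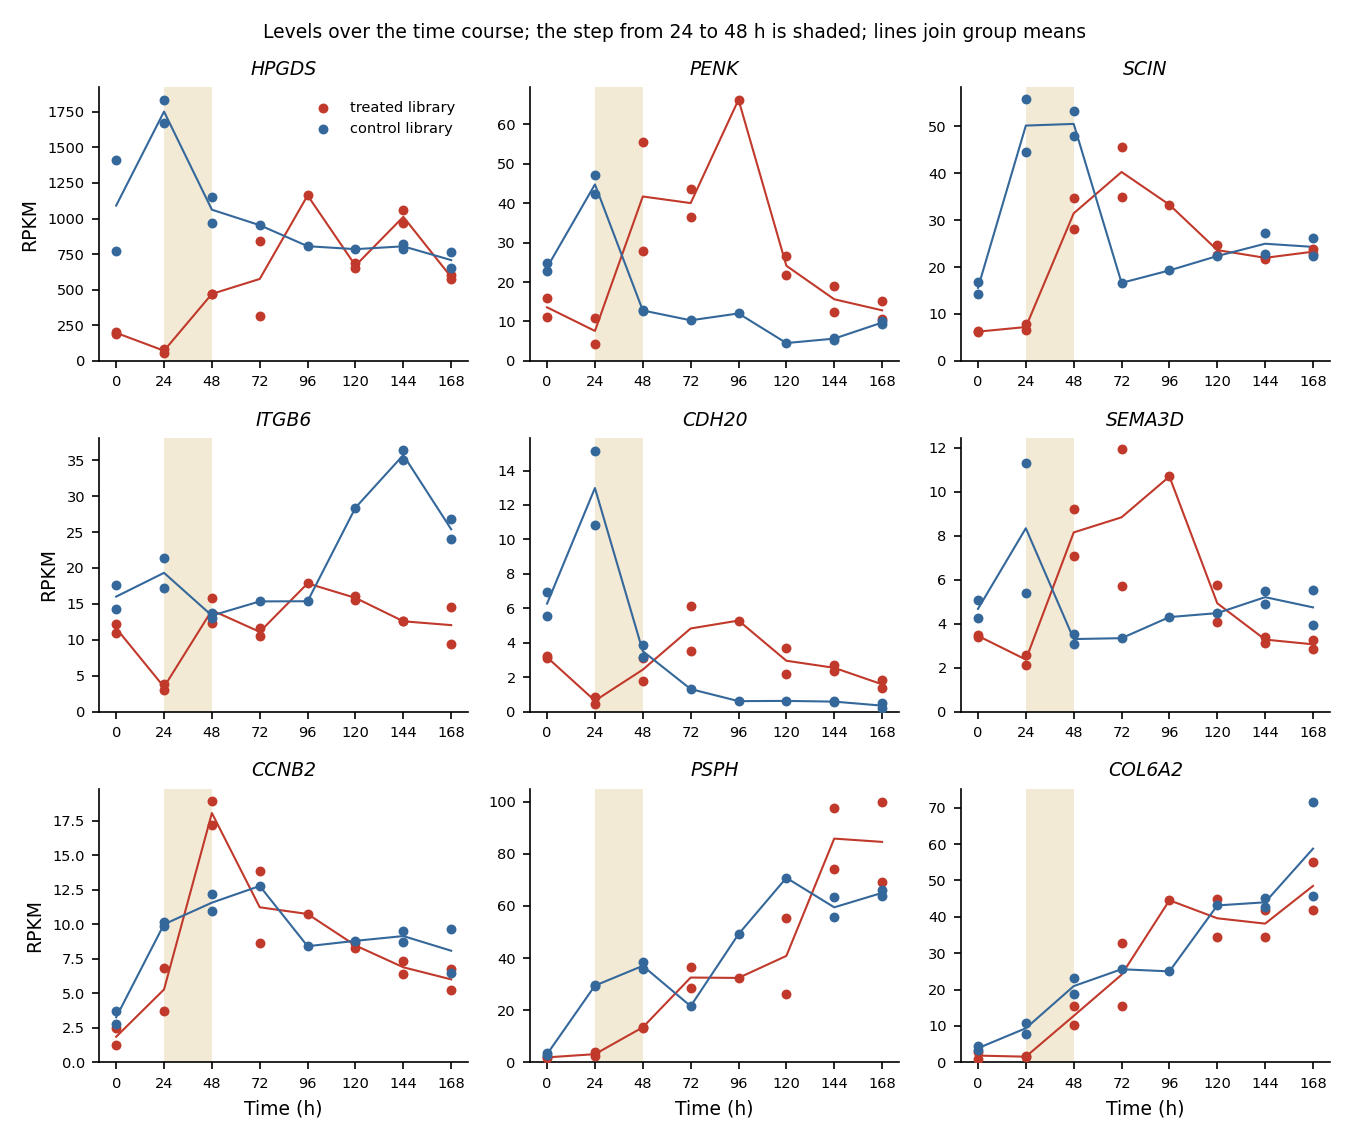
RPKM of 9 named genes in each library (points) of treated (red) and control (blue) papillae over the 8 time points from 0 to 168 h, with lines joining group means, a linear axis from 0 for each gene and the step from 24 to 48 h shaded. In the shaded step HPGDS, PENK, ITGB6, CDH20 and SEMA3D go up in treated and down in control papillae, and CCNB2 has its highest treated mean at 48 h.

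At the adjoining time points these genes did not share a single course. Treated SCIN was at 6.27 and 6.20 RPKM at 0 h and at 45.5 and 35.0 RPKM at 72 h, so its level was flat before the step and no lower after it. ITGB6 was at 12.3 and 10.9 RPKM at 0 h, above its 24 h level, and at 11.6 and 10.6 RPKM at 72 h. CCNB2 was at 2.46 and 1.25 RPKM at 0 h and at 13.9 and 8.63 RPKM at 72 h, both values at 72 h below those at 48 h. COL6A2 was at 2.75 and 0.955 RPKM at 0 h and at 32.8 and 15.4 RPKM at 72 h. ATP13A4, the largest fall, was at 3.18 and 5.62 RPKM at 0 h and at 1.46 and 4.66 RPKM at 72 h, so 24 h was its highest level of these 4 time points. CHRNA7 was at 13.6 and 10.8 RPKM at 0 h and at 5.84 and 4.79 RPKM at 72 h.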

How the data were processed

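The deposited table gives RPKM computed by the authors for 17684 features in 28 samples. Per the submitters' processing notes, TopHat 1.4.0 and Partek 6.6 were used, with no roles given. No genome build or annotation is named in the sources used here, and no positions or sequences are reported. Of 32 columns, 4 matched no sample used here and were left out. RPKM keeps no counts per gene, so precision comes from the spread between replicates, shared across genes and groups in the model. The series text describes the replicates as biological samples.

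The 12195 features that reached 1 RPKM in 2 or more samples were fitted as log2(RPKM + 1) in limma 3.58.1 (R 4.3.3; lmFit, eBayes with intensity trend), with 1 mean for each of 16 groups and 12 residual degrees of freedom. The 4 groups of 1 sample were taken to have the same spread as the rest. Benjamini-Hochberg adjustment ran over all features, and calls are two-sided at 0.05. The fit was tested on simulated data with noise drawn independently for each gene and library. A shift of a whole library was not simulated, so that test says nothing of it.

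Named genes are the 12 largest rises and falls, the 6 largest differences of steps each way, up to 4 called and 2 abundant uncalled members of each of 40 lists, and 17 followed genes, of which MKI67 was not analysed here. Not all are printed. Lists were matched by symbol or entry name, since synonyms gave wrong genes. The members and lists were chosen with earlier results of these data known. Alternatives changed the pseudocount, filter, trend, scaling, samples in the fit and replicate block, and left out each library.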

Additional observations from a re-analysis of the deposited data

Results flagged for a closer look

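For 9 of the genes named in the report, the step from 24 to 48 h differed between treated and control papillae by the test of that difference (limma, adjusted p under 0.05 over 12195 features, all 28 samples in the fit). PENK, the enkephalin precursor, had a difference of 4.07 on the log2 scale, made up of 2.34 in treated and -1.73 in control papillae. HPGDS, the prostaglandin D synthase, had a difference of 3.45, from 2.73 in treated and -0.72 in control papillae. In CDH20, a cadherin, the difference was 2.68, from 1.06 and -1.62, and in SEMA3D, a semaphorin, it was 2.48, from 1.44 and -1.04. For these 4 genes the treated and control steps ran in opposite directions, with the control step itself past the threshold in PENK and CDH20. The signs were also opposite, with smaller control falls, in ITGB6, PGM5, GLIPR2 and THBS1, given next.

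ITGB6, the integrin beta subunit, had a difference of 2.26 (1.76 in treated and -0.49 in control papillae). PGM5 had 2.20 (1.89 and -0.31), from levels of at most 3.27 RPKM in any of the 8 libraries compared. SCIN, the actin-severing scinderin, had 1.96, with 1.98 in treated and 0.02 in control papillae, so nearly all of it lay in the treated step. GLIPR2, one of the genes called in all 4 fits without a treated library, had a difference of 1.504, from 1.05 in treated and -0.45 in control papillae. THBS1, a thrombospondin of the matrix list, had 1.43, from 1.23 and -0.20.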

How the results depend on the processing

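The treated step gave 193 higher and 15 lower genes. Its rises numbered 380 with a replicate block over all samples, 64 with only the 4 samples compared in the fit, 514 with the replicate block in those 4 samples and 61 with only treated samples in the fit. The falls numbered 30, 3, 57 and 4 under the same settings, 9 with a pseudocount of 0.1 and 45 after rescaling. Without 1 library the rises ranged from 13 to 154 and the falls from 1 to 5. The control step gave 90 and 41, with 199 and 81 under the replicate block, 13 and 7 with only the samples compared, 156 lower after rescaling, and 0 to 36 higher and 0 to 20 lower without 1 library. The difference of steps gave 24 and 0, with 13 and 7 without the filter, 50 and 3 after rescaling, 53 and 5 under the replicate block, 62 and 5 under the replicate block with only the samples compared, 2 lower with a pseudocount of 0.1, and 6 to 56 higher and 0 to 4 lower without 1 library. Fits with fewer samples have fewer residual degrees of freedom. Whether this or anything else moved the counts was not tested.

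Differences between replicates 1 and 2 correlated across genes at 0.03 between treated 24 and 48 h, 0.215 between control 24 and 48 h, 0.29 between the arms at 24 h and 0.105 between them at 48 h. The labels tie no number to an animal or batch, each comparison holds 2 numbers, and not every correlation was over 0.1, so the samples were not taken as paired and the block is given here only. Of the named rises and falls of the treated step under the alternatives that kept every library, 644 results kept their direction and call and 220 kept their direction only. Without 1 library 102 kept both and 282 the direction only. Among uncalled genes the sign turned in CCND1 after rescaling (-0.0072). Without 1 library it turned in CCND1 (-0.031 to 0.16), PCNA (-0.027 to 0.32), ATOH1 (-0.22 to 0.90), MYC (-0.50 to 0.16), GFI1 (-0.34 to 0.043), CDKN1A (-0.0174 to 1.11), SLC26A4 (-0.18 to 0.25), SNAP25 (-0.118 to 0.047) and TMC2 (-0.037 to 0.15). The negative ends came without treated 24 h replicate 1 in all of these genes but CDKN1A and SNAP25. Depth is known per library and not per gene, which limits what can be said of genes near 0 RPKM.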

Other observations

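Beyond the mitosis list, 7 further genes linked to cell division were called higher at treated 48 h. They were picked from the called genes after their values were seen. GTSE1, which acts in G2 and at the spindle, went from 0.483 and 0.404 RPKM to 2.64 and 1.77 RPKM (1.14 ± 0.179, adjusted p = 0.00423). PBK, a kinase of dividing cells, went from 2.61 and 3.74 RPKM to 9.69 and 7.11 RPKM, and NEK2, a centrosome kinase, from 0.279 and 0.981 RPKM to 2.64 and 2.08 RPKM. KIF18B, CIT, FAM72A and CCNA1 were the others, with differences of 0.72, 0.75, 0.97 and 1.13. In no treated 24 h library did any of these 4 reach 1 RPKM.

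Of 27 genes for cholesterol synthesis none was called in the treated step by limma. An unadjusted p under 0.05 was found for 14 of them, against 1805 of all 12195 features. Both 48 h libraries exceeded both 24 h libraries for 22 of the 27, 81.5% against 30.0% of all features. The list's median was 0.49 in treated and 0.39 in control papillae. HMGCS1, an early enzyme of the pathway, stood at 35.5 and 41.0 RPKM and then 54.9 and 60.4 RPKM (adjusted p = 0.258). Of 44 genes for ribosome biogenesis, none had both 48 h libraries above both 24 h libraries, none was called by limma (1 at an unadjusted p under 0.05), and the median was -0.12, which became 0.13 without treated 24 h replicate 2.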
